A study of Mus musculus with 15 samples.

Results

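Chemokines are small secreted proteins that direct the movement of leukocytes, and each is read by one or more receptors of the G protein coupled type on the responding cell. The members described here are the genes whose symbol marks them as a CC, CXC, CX3C or XC ligand or as one of the matching receptors, with the symbol taken from the RefSeq accession of the array probe. The rule reads symbols and no expression value, but it was chosen with earlier results of these data known. The arrays carried a probe for 52 such genes, 34 ligands and 18 receptors, among 20660 named genes in all, and 42 of the 52 (26 ligands and 16 receptors) were bright enough to be tested.

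Whole pancreas from male C57BL/6J mice was profiled on 15 single-colour Agilent arrays. The groups were 4 wild type (WT) mice given saline, 4 wild type mice given cerulein, 3 transgenic (TG) mice given saline and 4 transgenic mice given cerulein. All mice had fasted for 18 h, received 1 intraperitoneal injection of saline with or without cerulein at 50 µg/kg body weight, and were killed 3 h later, although the labels of the saline mice carry the time 0 h. The series text counts 4 animals in each group, and 3 transgenic saline mice are analysed here. The series title concerns betacellulin, a ligand of the epidermal growth factor receptor family, in acute pancreatitis. The labels say only that the mice are transgenic, and the promoter of the transgene and the age of the mice are not given in the sources used here. Cerulein is an analogue of the hormone cholecystokinin, and in excess it makes the acinar cells, the enzyme-producing cells of the exocrine pancreas, activate their own enzymes and start acute pancreatitis.

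In pancreatitis, stressed acinar cells, stromal cells and resident macrophages release chemokines early. CXC ligands with a glutamate-leucine-arginine motif act on CXCR2 and draw neutrophils, ligands of CCR2 draw monocytes, and a further set of inflammatory CC ligands, among them those of CCR1 and CCR3, draws monocytes, eosinophils and T cells. Other members hold lymphocytes in lymphoid tissue or guide them to epithelia. In whole tissue, a change in the number of cells of a type and a change in RNA per cell cannot be told apart.

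A level here is the log2 signal of a gene's probe minus the log2 signal at that array's 75th percentile, so a level of 0 equals that percentile. Levels of different genes come from different probes and are not compared. A difference is between group means, in log2 units with its standard error (SE) from 1 limma fit over all 15 arrays, and "rose" or "fell" is used for an adjusted p below 0.05 after Benjamini-Hochberg adjustment over 17338 genes. The 75th percentile lay between an intensity of 152 and 529, and the share of probes well above background ran from 54.9% to 76% between arrays. The arrays came from 3 slides, and slide 2 held cerulein arrays only (wild type replicates 11 and 12 and transgenic replicate 16). Acinar markers were high in every group, with mean levels of 8.68 to 10.16, and were lower after cerulein: the median difference of the 9 tested was -0.77 in wild type and -0.70 in transgenic mice, and 8 of them fell and 1, Ptf1a, rose when the cerulein difference was averaged over genotypes. Their part in the ligand differences was not tested. The Btc probe did not separate the genotypes (difference 0.55 ± 0.48, adjusted p = 1.0 by limma after saline), so these arrays do not show the transgene. Intestinal epithelium markers stood apart on transgenic saline replicate 2 (mean level 2.53) and transgenic cerulein replicate 14 (2.20), against -2.60 to -0.49 on the other arrays.

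Of 2 tested ligands of CXCR2, 1 rose after cerulein in each genotype, and of 4 tested ligands listed under CCR2, 3 did. Of all genes tested, 5.63% rose in wild type and 4.78% in transgenic mice. Among the neutrophil attractants, Cxcl1 rose in both genotypes. Cxcl1 stood at -6.28, -6.36, -5.81 and -5.28 on the wild type saline arrays and at -2.25, -1.59, -1.43 and -1.77 on the wild type cerulein arrays. It stood at -6.21, -6.12 and -6.38 on the transgenic saline arrays and at -1.51, -1.12, -1.47 and -1.90 on the transgenic cerulein arrays. Its probe was well above background on no saline array and on every cerulein array, so its being tested depended on the cerulein arrays. The groups lay far apart. The difference was 4.17 ± 0.27 in wild type (adjusted p = 2.50e-07 by limma) and 4.74 ± 0.29 in transgenic mice (adjusted p = 4.09e-07). Because saline values were not well above background, these are given as bounds: at least 5.16-fold higher in wild type and at least 6.71-fold higher in transgenic mice. Such a bound sets the bright group's mean against, on each dim array, the higher of the gene's own signal and the lowest signal among probes well above background.

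Cxcl5, which acts on the same receptor, was more variable. It stood at -4.43, -4.38, -5.64 and -6.41 on the wild type saline arrays and at -4.26, -4.19, -2.12 and -3.22 on the wild type cerulein arrays. It stood at -2.65, -5.58 and -5.15 in transgenic saline mice and at -2.46, -2.67, -4.30 and -3.69 in transgenic cerulein mice. The wild type groups did not overlap, but the transgenic groups did, since transgenic saline replicate 2 was as bright as the cerulein arrays. The difference of 1.76 ± 0.69 in wild type (adjusted p = 0.0996) and of 1.18 ± 0.74 in transgenic mice (adjusted p = 0.393) did not pass the test by limma. Cxcl2, Cxcl3 and Cxcl15 were below the filter on dim probes.

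Of the 4 ligands listed under CCR2, 3 rose in each genotype, namely Ccl2, Ccl7 and Ccl12, beside the same shares of all genes. Ccl2, the main monocyte attractant, stood at -1.94, -2.77, -2.94 and -1.97 in wild type saline mice and at 1.07, 0.68, 0.49 and 1.37 in wild type cerulein mice. In transgenic mice it stood at -2.20, -2.56 and -2.27 after saline and at 0.15, 1.13, 0.04 and 0.62 after cerulein. The probe was well above background on all 15 arrays, and no cerulein array reached down to a saline array. Its difference was 3.31 ± 0.30 in wild type (9.89-fold, adjusted p = 9.35e-06 by limma) and 2.83 ± 0.33 in transgenic mice (7.10-fold, adjusted p = 0.000102).

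Ccl7 stood at -4.76, -6.16, -5.58 and -5.91 in wild type saline mice and at 0.10, 0.12, -1.06 and -0.04 after cerulein, and in transgenic mice at -4.94, -5.90 and -4.66 after saline and at -1.01, 0.54, -0.54 and -0.27 after cerulein. No saline array was well above background. The measured difference was 5.38 ± 0.40 in wild type (adjusted p = 1.36e-06 by limma), at least 15-fold, and 4.84 ± 0.44 in transgenic mice (adjusted p = 9.90e-06), at least 15.2-fold.

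Ccl12 stood at -5.39, -5.01, -4.82 and -3.79 in wild type saline mice, of which 1 array was well above background, and at -0.63, -1.23, -2.79 and -1.67 after cerulein. In transgenic mice it stood at -3.24, -3.31 and -3.92 after saline, with 2 arrays well above background, and at -2.27, 0.26, 0.07 and -0.22 after cerulein. The cerulein arrays were all above the saline arrays of the same genotype, with transgenic cerulein replicate 13 the closest. It rose by 3.17 ± 0.55 in wild type (adjusted p = 0.00167 by limma) and by 2.95 ± 0.60 in transgenic mice (adjusted p = 0.00646). These sizes rest in part on saline arrays not well above background, and no fold is given. The fourth ligand listed under CCR2, Ccl8, was not called in either genotype, with differences of -0.16 ± 0.29 and -0.57 ± 0.31. The receptor that Ccl8 uses in mice was not tested.

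**Figure D1:**
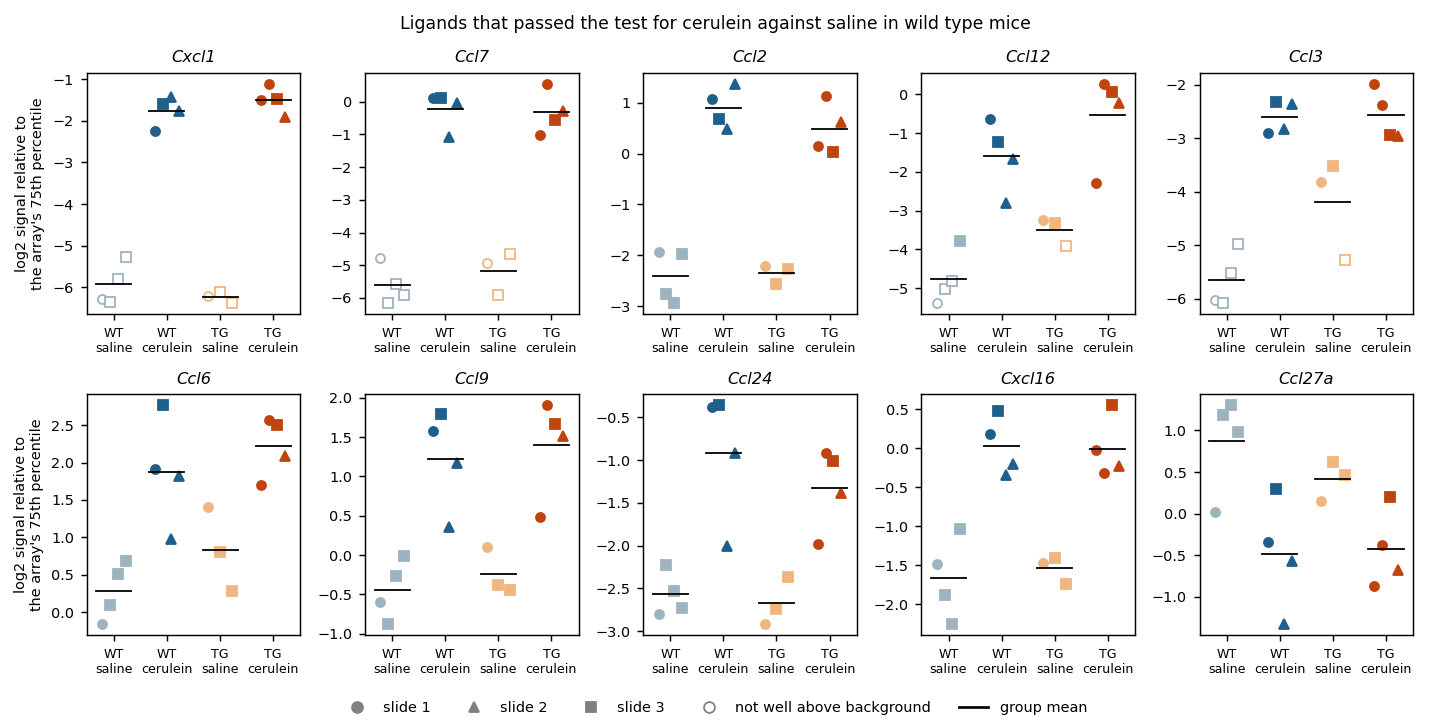
Level on each array (y axis, log2 signal relative to the array's 75th percentile) of the 10 ligands that passed the test for cerulein against saline in wild type mice, by group (x axis). Symbols give the slide, open symbols arrays not well above background, and bars the group means. Cxcl1 and Ccl7 are open on every saline array and filled on every cerulein array. The wild type groups of Ccl27a overlap, while those of the other 9 ligands do not.

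The other inflammatory CC ligands, among them those of CCR1 and CCR3, also held members that rose. Of the 7 tested, 4 rose in each genotype: Ccl3, Ccl6, Ccl9 and Ccl24. Of all genes tested, 5.63% rose in wild type and 4.78% in transgenic mice. Ccl3, a macrophage inflammatory protein that acts on CCR1, stood at -6.02, -6.09, -5.52 and -4.99 in wild type saline mice, none of them well above background, and at -2.90, -2.31, -2.83 and -2.36 after cerulein. In transgenic mice it stood at -3.81, -3.52 and -5.28 after saline, with 2 arrays well above background, and at -1.99, -2.39, -2.94 and -2.96 after cerulein. The cerulein levels of the genotypes overlapped, and 2 of the 3 transgenic saline arrays lay above all 4 wild type saline arrays. Ccl3 rose by 3.05 ± 0.38 in wild type (adjusted p = 0.000110 by limma), at least 2.88-fold, and by 1.63 ± 0.41 in transgenic mice (adjusted p = 0.0216), where 1 of the 3 saline arrays gave only an upper limit.

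Ccl6 and Ccl9, rodent CCR1 ligands made by myeloid cells, were well above background on all arrays. Ccl6 stood at -0.16, 0.10, 0.51 and 0.68 in wild type saline mice and at 1.91, 2.76, 0.97 and 1.83 after cerulein, and in transgenic mice at 1.41, 0.80 and 0.29 after saline and at 1.71, 2.56, 2.51 and 2.09 after cerulein. Within each genotype the cerulein arrays were higher. Ccl6 rose by 1.58 ± 0.36 in wild type (adjusted p = 0.00942 by limma) and by 1.38 ± 0.39 in transgenic mice (adjusted p = 0.0405).

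Ccl9 stood at -0.60, -0.88, -0.26 and -0.01 in wild type saline mice and at 1.57, 1.80, 0.36 and 1.17 after cerulein, and in transgenic mice at 0.10, -0.39 and -0.44 after saline and at 0.49, 1.90, 1.66 and 1.52 after cerulein. The groups did not overlap in either genotype, and the lowest cerulein arrays were wild type replicate 11 and transgenic replicate 13. Ccl9 rose by 1.66 ± 0.35 in wild type (adjusted p = 0.00604 by limma) and by 1.63 ± 0.38 in transgenic mice (adjusted p = 0.0146).

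Ccl24, the CCR3 ligand eotaxin-2, stood at -2.80, -2.23, -2.53 and -2.73 in wild type saline mice and at -0.39, -0.36, -2.01 and -0.92 after cerulein, and in transgenic mice at -2.92, -2.74 and -2.36 after saline and at -1.98, -0.91, -1.01 and -1.38 after cerulein. Again no cerulein array fell among the saline arrays of its genotype. Ccl24 rose by 1.65 ± 0.34 in wild type (adjusted p = 0.00540 by limma) and by 1.35 ± 0.37 in transgenic mice (adjusted p = 0.0357). Ccl11, the related eotaxin, was not called, at 0.02 ± 0.27 in wild type and 0.33 ± 0.29 in transgenic mice.

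Ccl4, a second macrophage inflammatory protein, stood at -3.53, -3.61, -5.45 and -3.46 in wild type saline mice and at -2.82, -3.45, -2.45 and -2.73 after cerulein, and in transgenic mice at -3.64, -3.50 and -3.83 after saline and at -3.20, -3.10, -3.39 and -2.81 after cerulein. The groups did not overlap, by a narrow gap. The difference of 1.15 ± 0.38 in wild type had an adjusted p of 0.0548 and that of 0.53 ± 0.41 in transgenic mice an adjusted p of 0.493 by limma. The wild type difference passed in the authors' series table and without wild type saline replicate 5 or wild type cerulein replicate 10. Ccl5, a T cell attractant, went the other way in transgenic mice, at 2.34, 2.18 and 2.21 after saline and at 0.35, -0.12, 1.36 and 2.01 after cerulein. Those groups did not overlap, but the wild type groups did, with saline arrays at 1.66, 1.55, -1.74 and 3.30 and cerulein arrays at 2.49, 0.16, -0.79 and 0.36. The spread of Ccl5 within groups was wide, and its difference of -1.35 ± 0.95 in transgenic mice did not pass the test (adjusted p = 0.454 by limma).

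The membrane-anchored ligand Cxcl16, which binds CXCR6 and is also a scavenger receptor, was the ninth ligand to rise. It stood at -1.48, -1.88, -2.25 and -1.03 in wild type saline mice and at 0.19, 0.48, -0.34 and -0.20 after cerulein, and in transgenic mice at -1.47, -1.40 and -1.74 after saline and at -0.02, -0.32, 0.55 and -0.22 after cerulein. The saline and cerulein arrays were clearly apart in both genotypes. Cxcl16 rose by 1.69 ± 0.28 in wild type (3.24-fold, adjusted p = 0.00131 by limma) and by 1.54 ± 0.31 in transgenic mice (2.90-fold, adjusted p = 0.00601).

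In all, 9 of the 26 tested ligands rose in wild type, where 5.63% of all genes tested did, and the same 9 rose in transgenic mice, where 4.78% of all genes did. Over all genes, 4.04% rose in both genotypes. In wild type, 11 members had every cerulein array above every saline array (7.35% of all genes) and 1, Ccl25, had every one below (10.1%). In transgenic mice 10 members lay wholly above (9.95% of all genes) and 2, Ccl5 and Ccl8, wholly below (11.6%). The median difference over the 42 tested members was 0.16 in wild type and 0.02 in transgenic mice, against -0.06 in both genotypes over all genes. Of the 42, 9 passed the filter with fewer than 3 saline arrays well above background, Cxcl1, Ccl7 and Ccl3 among them, so their being tested already depended on the cerulein arrays. Among the 22 members well above background on all 15 arrays, 5 rose in both genotypes, namely Ccl2, Ccl6, Ccl9, Ccl24 and Cxcl16. With the fit kept to genes well above background on all arrays, 6.54% of all genes rose in wild type and 6.22% in transgenic mice.

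In wild type, all 9 calls held whichever single array was left out, and in transgenic mice those of Cxcl1, Ccl7, Ccl2, Ccl12 and Cxcl16 did. The transgenic calls of Ccl3, Ccl6, Ccl9 and Ccl24 were lost without transgenic saline replicate 4 or transgenic cerulein replicate 14, each of which left 5 members called in place of 9. Without the 2 arrays high in intestinal markers, 4 transgenic calls were left (Cxcl1, Ccl7, Ccl2 and Cxcl16), while Ccl12 had a difference of 2.80 and an adjusted p of 0.0567. With slide as a block, all 9 ligands rose in both genotypes. Within slides 1 and 3, each of which held both treatments, the 9 differences kept their direction. Normexp background correction, which lifts dim signals towards a common floor, ended the wild type calls of Ccl3 (0.20, adjusted p = 0.451 by limma), Ccl12 (0.72, adjusted p = 0.127) and Ccl24 (0.71, adjusted p = 0.0576), and cut the wild type differences of Cxcl1 to 0.76 and of Ccl7 to 1.75, both still called. In transgenic mice it ended the calls of Ccl3 (0.17, adjusted p = 0.585) and Ccl24 (0.54, adjusted p = 0.186), which left 7 of 9.

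Markers of leukocytes were read on the same arrays. Of 9 tested neutrophil markers, 3 rose in wild type (S100a8, S100a9 and Clec4d), where 5.63% of all genes did. In transgenic mice 1 rose (Clec4d), where 4.78% of all genes did. The mean level of the 9 ranged from -2.03 to -0.98 in wild type saline mice, from -1.27 to 0.00 in wild type cerulein mice, from -0.70 to 0.13 in transgenic saline mice and from -0.34 to 0.49 in transgenic cerulein mice. Ltf was well above background on no wild type saline array, and Mmp8 on no array at all. Of 8 tested monocyte and macrophage markers, Cd14 alone rose, by 1.36 ± 0.19 in wild type (adjusted p = 0.000259 by limma) and by 1.24 ± 0.20 in transgenic mice (adjusted p = 0.00138). When the cerulein difference was averaged over genotypes, 3 neutrophil markers rose and 1 fell. Of the monocyte and macrophage markers, 1 rose and 1 fell in that average, where 10.1% of all genes rose and 17% fell. The part of these cells in the ligand differences was not tested.

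**Figure D2:**
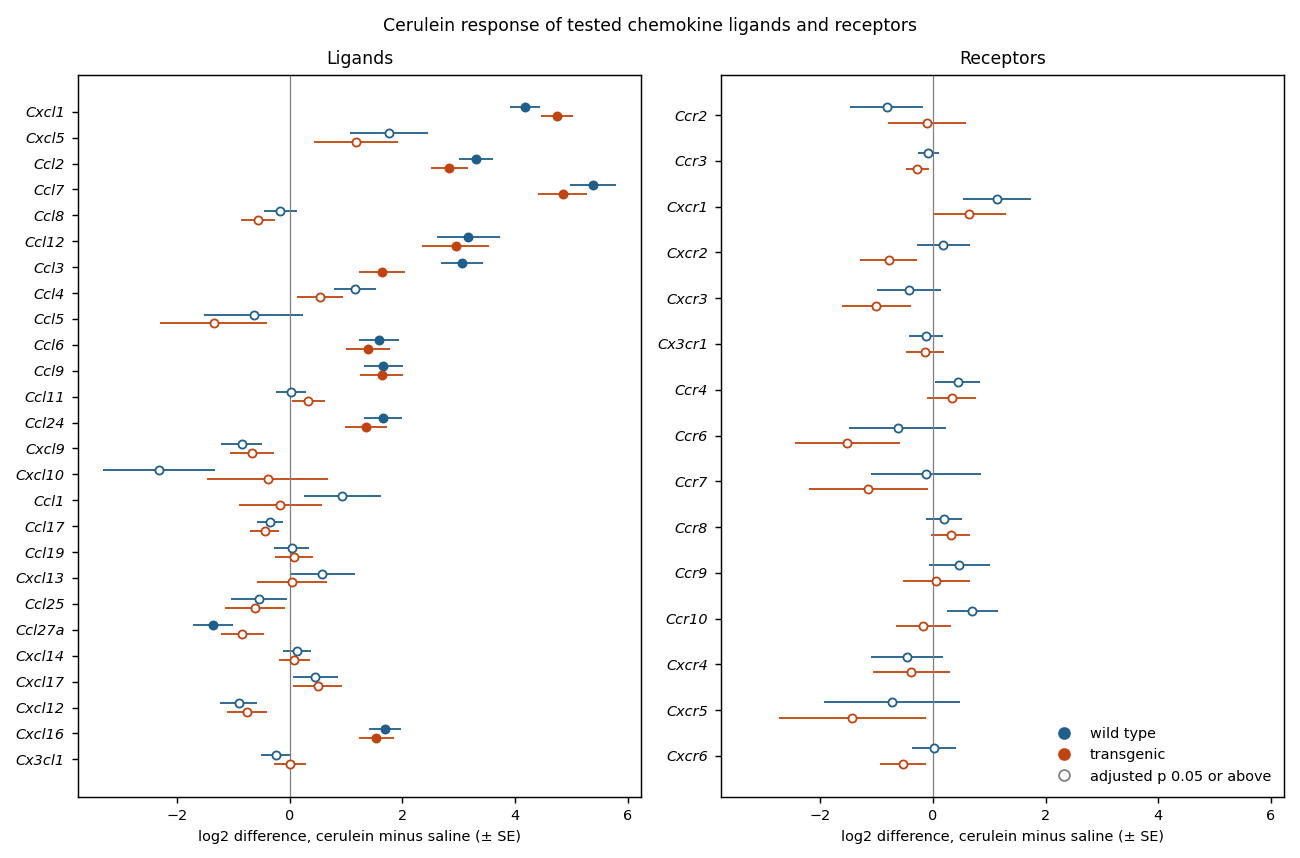
Difference between cerulein and saline (x axis, log2 units, bars are ± SE from the limma fit) for the 26 tested ligands and 15 tested receptors, in wild type and transgenic mice. Filled points passed an adjusted p of 0.05. The filled points to the right of 0 are the same 9 ligands in both genotypes. Among the plotted genes, Cxcl1, Ccl7, Ccl1, Cxcl17 and Ccr4 had no saline array well above background. In wild type, Ccl3 and Cxcl5 had none either. The points of these genes show the fitted differences, and the bounds given in the text for Cxcl1, Ccl7 and Ccl3 are smaller. No receptor point is filled.

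Of the raised CC ligands, all but Ccl24 lie in 2 runs of neighbouring genes on chromosome 11. In the RefSeq gene order, Ccl2, Ccl7, Ccl11, Ccl12, Ccl8 and Ccl1 follow each other on chromosome 11, and of these 6 neighbours Ccl2, Ccl7 and Ccl12 rose. A second run on the same chromosome holds Ccl5, Ccl9, Ccl6, Ccl3 and Ccl4, and of these 5 Ccl9, Ccl6 and Ccl3 rose. Of all genes tested, 5.63% rose in wild type and 4.78% in transgenic mice. On chromosome 5, Cxcl1 lies between Cxcl15 and Cxcl2, with Cxcl3 on the far side of Cxcl15, and it was the only one of these 4 bright enough to be tested. The runs also hold 5 tested ligands that were not called, Ccl11, Ccl8, Ccl1, Ccl5 and Ccl4. Ccl24, the other raised ligand on chromosome 5, lies beside Ccl26, and Cxcl16 lies apart from both runs on chromosome 11.

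Promoters of 5 of the 9 raised ligands were in the RefSeq promoter table (build GRCm38.p6), and 4 are shown to let the regulatory sequence of Cxcl1, the neutrophil attractant with no saline signal, be read beside those of CC ligands that rose with it. NF-kB is the main transcription factor of the early cytokine response and binds kappaB sites, and AP-1 is a second stress-activated factor. Each line gives the 250 bases before the gene's start, 5′ to 3′ on the gene's strand, with matches to the kappaB consensus or to the AP-1 motif TGANTCA, searched on both strands, in capitals. Cxcl1 is at chr5:90890995-90891244 (plus strand), Ccl9 at chr11:83578637-83578886 (minus), Ccl3 at chr11:83649379-83649628 (minus) and Ccl12 at chr11:82101595-82101844 (plus).
Cxcl1: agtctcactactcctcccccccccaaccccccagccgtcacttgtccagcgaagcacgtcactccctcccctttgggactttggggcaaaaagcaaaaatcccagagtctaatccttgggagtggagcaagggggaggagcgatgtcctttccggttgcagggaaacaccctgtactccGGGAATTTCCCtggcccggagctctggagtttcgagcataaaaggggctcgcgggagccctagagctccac
Ccl9: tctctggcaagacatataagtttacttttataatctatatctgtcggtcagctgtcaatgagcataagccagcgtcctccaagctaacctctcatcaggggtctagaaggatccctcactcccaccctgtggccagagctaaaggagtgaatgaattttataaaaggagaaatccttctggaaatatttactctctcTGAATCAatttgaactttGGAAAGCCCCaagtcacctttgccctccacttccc
Ccl3: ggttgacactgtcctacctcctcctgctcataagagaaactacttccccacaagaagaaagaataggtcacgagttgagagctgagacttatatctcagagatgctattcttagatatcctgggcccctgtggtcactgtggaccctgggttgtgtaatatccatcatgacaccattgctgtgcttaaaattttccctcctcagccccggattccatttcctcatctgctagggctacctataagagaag
Ccl12: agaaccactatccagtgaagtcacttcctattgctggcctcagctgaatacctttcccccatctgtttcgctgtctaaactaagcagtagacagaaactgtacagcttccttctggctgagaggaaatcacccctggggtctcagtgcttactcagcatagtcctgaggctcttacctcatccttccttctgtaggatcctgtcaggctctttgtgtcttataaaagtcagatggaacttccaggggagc
In Cxcl1, overlapping kappaB matches on both strands spanned positions -71 to -61 from the start. Ccl9 held an AP-1 match at -53 to -47 and a kappaB match on the opposite strand at -35 to -26. In Ccl3 and Ccl12 neither pattern was found in this window, nor was it in Ccl6. Over all members with a promoter in the table, 8 of 38 held a kappaB match, against 3.9% of all 32851 promoter windows, and 5 of 38 held the AP-1 motif, against 6.75% of all windows. The units differ, since a member counted if any of its windows matched (42 windows for the 38 members). The 8 were Cxcl1, Cxcl2, Cxcl3, Cxcl10, Ccl9, Ccl20, Ccr3 and Ccr6, of which Cxcl2, Cxcl3 and Ccl20 were too dim to be tested and Cxcl10, Ccr3 and Ccr6 were not called. A match is a description of the letters and shows no binding.

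The remaining ligands gave few calls after cerulein. The interferon-inducible ligands of CXCR3 were not called: Cxcl9 stood at -3.01, -2.71, -2.86 and -1.67 in wild type saline mice and at -2.67, -3.38, -3.84 and -3.77 after cerulein, and in transgenic mice at -2.74, -1.84 and -1.96 after saline and at -2.63, -3.60, -2.51 and -2.67 after cerulein. Most cerulein arrays were lower, with overlap in both genotypes, and the differences were -0.85 ± 0.36 (adjusted p = 0.126 by limma) and -0.67 ± 0.39 (adjusted p = 0.348). Cxcl10 ranged from -6.82 to -0.06 over the 15 arrays, with a wild type difference of -2.32 ± 0.99 (adjusted p = 0.128) that passed without wild type saline replicate 7.

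Cxcl12, the stromal ligand of CXCR4, stood at 1.98, 2.30, 2.29 and 2.72 in wild type saline mice and at 1.82, 2.03, 0.66 and 1.14 after cerulein, and in transgenic mice at 1.92, 2.69 and 2.71 after saline and at 1.43, 1.36, 2.37 and 1.58 after cerulein. Both pairs of groups overlapped slightly. The differences were -0.91 ± 0.33 in wild type (adjusted p = 0.0776 by limma) and -0.76 ± 0.35 in transgenic mice (adjusted p = 0.227), and with slide as a block they shrank to -0.40 and -0.40. The lowest wild type values, on replicates 11 and 12, were on slide 2.

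Ccl27a, a CCR10 ligand known from skin, was the single ligand that fell, and only the wild type difference passed (8.35% of all genes fell there and 3.42% in transgenic mice). It stood at 0.02, 1.19, 1.30 and 0.98 in wild type saline mice and at -0.34, 0.29, -1.33 and -0.57 after cerulein, and in transgenic mice at 0.15, 0.62 and 0.46 after saline and at -0.87, -0.37, 0.20 and -0.68 after cerulein. The groups overlapped in both genotypes. The difference was -1.36 ± 0.36 in wild type (adjusted p = 0.0213 by limma) and -0.84 ± 0.39 in transgenic mice (adjusted p = 0.22), and the difference between these responses was 0.52 with a 95% interval from -0.61 to 1.65. Its other probes gave -1.12 and 0.12 in wild type, so the probes disagreed, and the gene has a near-identical copy, Ccl27b, that such probes may share. The wild type call was lost in 5 of 15 fits that left out 1 array (wild type saline 6, 7 or 8, wild type cerulein 11 or 12) and without slide 2, where the difference was -0.90 (adjusted p = 0.221).

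Among ligands of lymphoid tissue, Ccl19, which keeps T cells and dendritic cells in lymph nodes, stood between 0.98 and 1.64 in wild type saline mice, 0.52 and 1.61 in wild type cerulein mice, 0.59 and 1.21 in transgenic saline mice and 0.07 and 1.37 in transgenic cerulein mice. Its differences were 0.04 ± 0.31 and 0.07 ± 0.33, while its dimmest probe gave -0.91 ± 0.86 in wild type and -1.53 ± 0.93 in transgenic mice. With slide as a block the wild type difference of Ccl19 turned to -0.47 (adjusted p = 0.0248 by limma). Ccl17, a CCR4 ligand, gave -0.36 ± 0.23 in wild type and -0.45 ± 0.25 in transgenic mice. Neither ligand was called by limma (lowest adjusted p = 0.312 for Ccl17). Ccl1, a CCR8 ligand, was well above background on the 3 arrays of slide 2 alone, at -3.82 and -3.46 in wild type cerulein mice and at -4.60 in a transgenic cerulein mouse, and between -6.85 and -5.46 on the other 12 arrays. Its difference of 0.93 ± 0.68 in wild type became -0.27 with slide as a block, and the part of the slide in it was not tested further.

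No receptor was called after cerulein in either genotype by limma: 0 of 16 in wild type, where 14% of all genes were called in one direction or the other, and 0 of 16 in transgenic mice, where 8.2% of all genes were. Nor did any receptor reach an unadjusted p below 0.05 in either comparison, and no receptor had groups that did not overlap. The lowest adjusted p was 0.209, for Cxcr1 in wild type, and 0.377, for Ccr6 in transgenic mice. Other settings did call receptors. With slide as a block, Cxcr6 was lower in transgenic mice (-0.97, adjusted p = 0.016 by limma), and with normexp Cxcr2 was (-0.61, adjusted p = 0.0435). With array weights, which give noisier arrays less say, Cxcr1 (1.85) and Ccr9 (1.22) were higher in wild type, and in transgenic mice Cxcr1 was higher (0.98) while Ccr6, Ccr7, Cxcr3, Cxcr4 and Cxcr5 were lower (-3.59 to -1.46). Array weights called 3387 of all 17338 genes higher and 5794 lower in wild type, and 4146 and 5624 in transgenic mice.

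Among receptors of the raised ligands, Cxcr2, the neutrophil receptor for Cxcl1, was well above background on 1 wild type saline array, 4 wild type cerulein arrays, 2 transgenic saline arrays and 1 transgenic cerulein array. Its difference was 0.19 ± 0.47 in wild type, with a 95% interval from -0.82 to 1.19, and -0.79 ± 0.51 in transgenic mice, with an interval from -1.87 to 0.30. Cxcr1 stood at -3.46 and -2.21 on the wild type and at -2.29 on the transgenic cerulein array of slide 2, and at -3.68 or below elsewhere. Its wild type difference of 1.15 ± 0.60 (adjusted p = 0.209 by limma) became 0.01 with slide as a block.

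Ccr2, the monocyte receptor of Ccl2, Ccl7 and Ccl12, stood at -3.96, -3.29, -4.14 and -2.79 in wild type saline mice and at -2.76, -3.82, -6.82 and -4.08 after cerulein, and in transgenic mice at -2.50, -2.07 and -2.60 after saline and at -3.32, -2.72, -1.97 and -1.96 after cerulein. The treatment groups overlapped in both genotypes, with differences of -0.82 ± 0.65 and -0.10 ± 0.70. Ccr1 was well above background on none of the 15 arrays, and Ccr3 gave -0.08 ± 0.19 and -0.28 ± 0.20.

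Cx3cr1, found on resident macrophages and patrolling monocytes, stood at 0.67, -0.48, -0.84 and -0.72 in wild type saline mice and at -0.25, -1.07, -0.28 and -0.26 after cerulein, and in transgenic mice at 0.47, 0.17 and -0.21 after saline and at -0.15, 0.20, -0.06 and 0.03 after cerulein. Ccr8 stood between 1.45 and 3.42 on all arrays, and Cxcr6, the receptor of Cxcl16, between 0.54 and 2.31. These groups overlapped in both genotypes. The differences were -0.12 ± 0.31 and -0.14 ± 0.33 for Cx3cr1, 0.20 ± 0.32 and 0.32 ± 0.35 for Ccr8, and 0.02 ± 0.38 and -0.53 ± 0.41 for Cxcr6.

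The design also asks whether the transgene changed the cerulein response. No member was called by limma for the difference between the responses (0 of all 17338 genes was called), and 1 member, Ccl3, had an unadjusted p below 0.05 (134 of all genes did, 0.773%). No saline array of wild type mice was well above background for Ccl3, so the size of its wild type response is a bound and no exact difference of responses is given. With normexp the responses of Ccl3 were 0.20 and 0.17. The same limit holds for Cxcl1, Ccl7 and, on most saline arrays, Ccl12. For the 5 raised ligands measured on every array, the 95% intervals of the transgenic minus the wild type response all included 0. They ran from -1.44 to 0.48 for Ccl2, from -1.33 to 0.93 for Ccl6, from -1.13 to 1.08 for Ccl9, from -1.38 to 0.78 for Ccl24 and from -1.06 to 0.74 for Cxcl16. These intervals leave room for differences of more than 1 log2 unit between the responses.

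Between the genotypes, no member was called after saline (0.075% of all genes were) or after cerulein (0.144% were, 0.138% higher and 0.00577% lower) by limma. After saline, all transgenic arrays lay above all wild type arrays for Ccl8, Cx3cl1 and Ccr2 (4.41% of all genes) and below them for Cxcl14 (2.21%). After cerulein they lay above for Ccl8 and Cx3cr1 (1.57%) and below for no member (0.94%). Unadjusted p-values were below 0.05 for 4 members after saline, Ccl3, Ccl8, Cx3cl1 and Cxcl14 (3.22% of all genes), and for 5 after cerulein, Ccl8, Ccl11, Ccr2, Cx3cl1 and Cxcl14 (7.04% of all genes). Ccl8, Cx3cl1 and Cxcl14 were on both lists. These comparisons share no arrays, and the genotype difference averaged over both treatments was therefore also read from the same fit. That average was chosen after the values had been seen.

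Ccl8, listed here with the monocyte attractants, stood at -2.92, -1.83, -3.10 and -1.85 in wild type saline mice and at -0.92, -0.99 and -1.42 in transgenic saline mice. After cerulein it stood at -2.63, -2.53, -2.85 and -2.36 in wild type and at -1.49, -1.84, -1.49 and -1.87 in transgenic mice. At each treatment all transgenic arrays were higher. The averaged difference was 1.12 ± 0.21 (adjusted p = 0.0271 by limma), and in this average 0.571% of all genes were called, with 0.542% higher.

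Cxcl14, an epithelial and stromal chemokine that attracts monocytes and dendritic cells, stood at -0.29, 0.01, 0.21 and -0.16 in wild type saline mice and at -1.06, -0.89 and -0.97 in transgenic saline mice. After cerulein it stood at 0.32, 0.59, -0.40 and -0.23 in wild type and at -1.19, -0.97, -0.32 and -1.11 in transgenic mice. The saline groups were apart, and after cerulein transgenic replicate 15 reached into the wild type range. The averaged difference was -0.94 ± 0.19 (adjusted p = 0.0331 by limma), and 0.0288% of all genes were called lower. With slide as a block it was also called after cerulein alone, at -1.07 (adjusted p = 0.00918).

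Cx3cl1, the membrane-bound ligand of Cx3cr1, stood at -2.39, -2.26, -2.36 and -2.22 in wild type and at -1.78, -1.53 and -1.63 in transgenic saline mice, and after cerulein at -1.99, -2.14, -2.92 and -3.14 in wild type and at -1.95, -1.35, -1.28 and -2.0 in transgenic mice. Its averaged difference was 0.78 ± 0.20 (adjusted p = 0.1 by limma), and it passed with slide as a block (0.70, adjusted p = 0.00870). The calls of Ccl8 and Cxcl14 in this average were not stable. Leaving out 1 array kept that of Ccl8 in 7 of 15 fits and that of Cxcl14 in 5 of 15. Without the 2 arrays high in intestinal markers their averaged differences were 1.10 (adjusted p = 0.131 by limma) and -0.91 (adjusted p = 0.16). Without slide 2, Ccl8 had an adjusted p of 0.115 and Cxcl14 of 0.032.

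Markers of fibroblasts and stellate cells differed with genotype on the same arrays. Of 7 such markers, all tested, 5 were higher in transgenic mice in the average over treatments (Pdgfra, Pdgfrb, Col1a1, Col1a2 and Lum). In that average, which was chosen after the values had been seen, 0.542% of all genes were higher. The mean level of the 7 markers ranged from 0.47 to 1.06 in wild type saline mice, from -0.24 to 0.94 in wild type cerulein mice, from 1.41 to 2.07 in transgenic saline mice and from 1.27 to 2.61 in transgenic cerulein mice. Of 9 tested neutrophil markers, 3 were higher in transgenic mice in the same average (S100a8, S100a9 and Camp), beside the same share of all genes. The part of these cells in the values of Ccl8, Cxcl14 and Cx3cl1 was not tested.

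**Figure D3:**
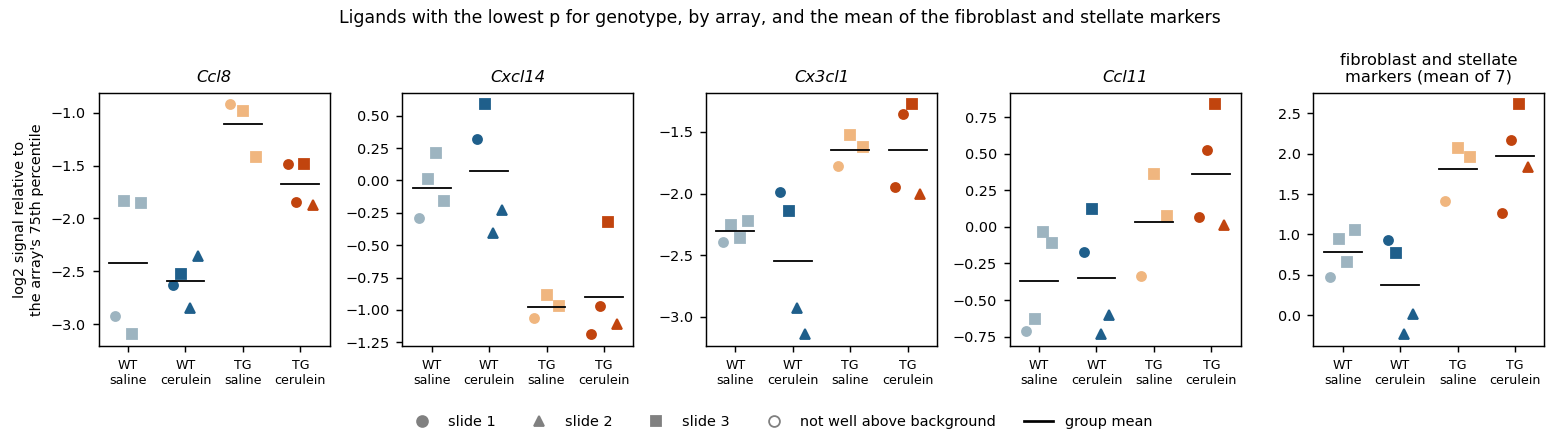
Level on each array (y axis, log2 relative to the array's 75th percentile) of Ccl8, Cxcl14, Cx3cl1 and Ccl11, and the mean level of 7 fibroblast and stellate markers, by group (x axis); symbols give the slide and bars the group means. All transgenic arrays of Ccl8 lie above the wild type arrays of the same treatment, and the marker means are 1.27 or higher in transgenic mice and 1.06 or lower in wild type mice.

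Some members varied more between mice of a group than between groups. The 5 with the largest standard deviation within groups were Cxcr5 (1.94), Cxcl10 (1.59), Ccr7 (1.57), Ccl5 (1.41) and Ccr6 (1.38), against a median of 0.594 over the 42 tested members and 0.419 over all genes. Cxcr5, Ccr7 and Ccr6 are receptors of B cells and of T cells in lymph nodes. Ccr7 stood at 1.40, 0.22, -2.96 and 2.71 in wild type saline mice, at 1.98, -0.56, -0.40 and -0.16 in wild type cerulein mice, at 0.66, 1.28 and 1.16 in transgenic saline mice and at 0.06, -1.98, 0.89 and 0.58 in transgenic cerulein mice. Wild type saline replicate 7 was thus the lowest and wild type saline replicate 8 the highest of all 15 arrays.

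The same arrays stood apart for other members. On wild type saline replicates 7 and 8, Ccl5 stood at -1.74 and 3.30, Ccr6 at -3.76 and 0.70, Cxcr3 at -3.60 and -0.36, Cxcr4 at -4.47 and -1.16 and Cxcl13 at -3.51 and 0.21. On all 5, replicate 8 was the highest of the 15 arrays, and on all but Ccr6 and Cxcr4, where transgenic cerulein replicate 14 was lower still, replicate 7 was the lowest. The mean level of 12 lymphocyte and lymph node markers, all tested, was -1.26 on replicate 7 and 1.27 on replicate 8, and -0.75 on transgenic cerulein replicate 14, with the other 12 arrays between -0.20 and 0.93. None of the 12 markers was called after cerulein in either genotype, while 2 fell in the cerulein difference averaged over genotypes (17% of all genes did). Whether the amount of lymphoid tissue in the sample sets these member levels was not tested.

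Ccl25, the ligand of CCR9 that guides T cells to the small intestine, stood at 1.74 on transgenic saline replicate 2 and at 1.41 on transgenic cerulein replicate 14, the 2 arrays high in intestinal markers, and between -0.92 and -0.02 on the other 13 arrays. Of 6 intestinal markers 4 were tested, and Cdh17 and Cdx2 were well above background on 1 transgenic saline and 1 transgenic cerulein array each and on no other. With these arrays in, the transgenic difference of Ccl25 after cerulein was -0.61 ± 0.54 (adjusted p = 0.552 by limma). In wild type mice every cerulein array was below every saline array, at -0.86 to -0.46 against -0.45 to -0.02, with a difference of -0.54 ± 0.50 (adjusted p = 0.464).

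**Figure D4:**
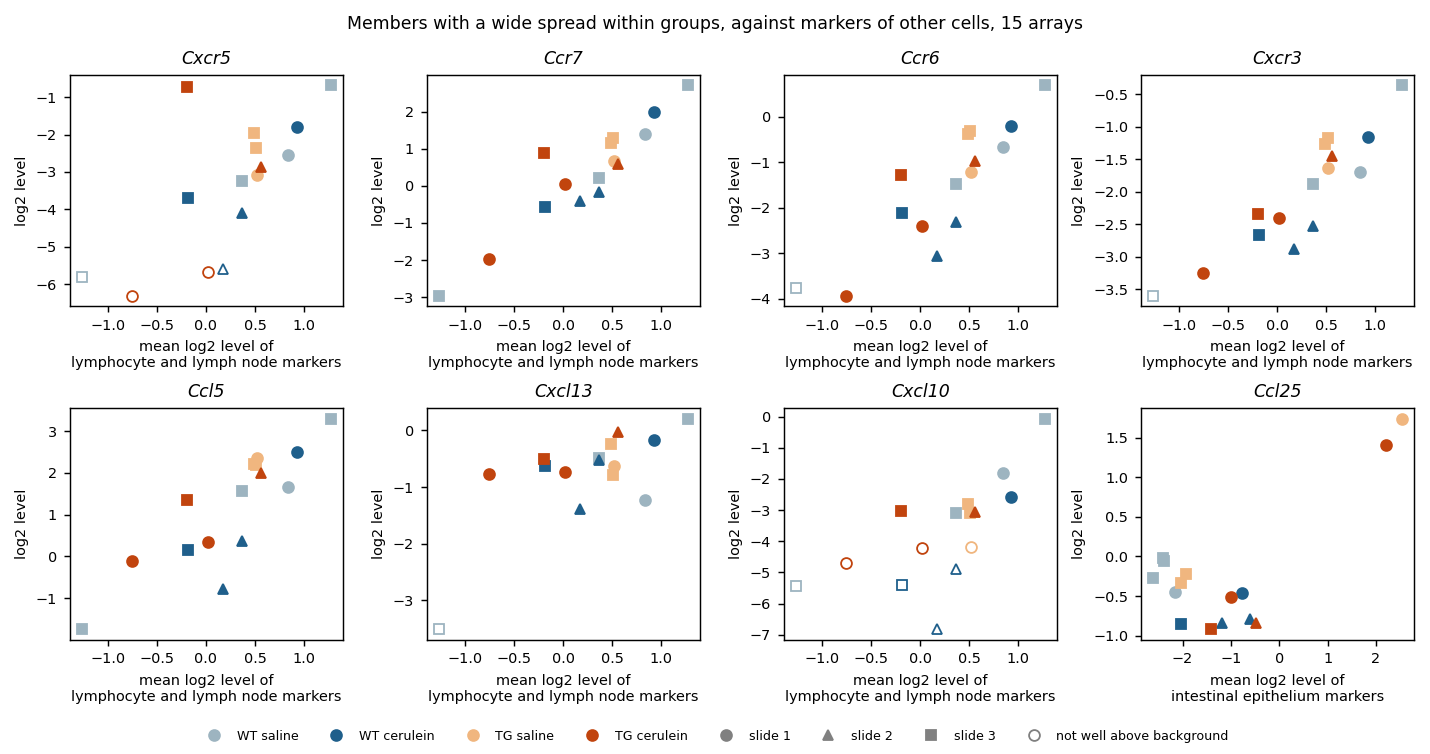
Level of 8 members on each of the 15 arrays (y axis, log2 relative to the array's 75th percentile) against the mean level of the lymphocyte and lymph node markers, or for Ccl25 of the intestinal epithelium markers (x axis, same scale). Colours give the group, shapes the slide and open symbols arrays not well above background. Wild type saline replicates 7 and 8 lie at the ends of the lymphocyte axis, at -1.26 and 1.27, and the 2 arrays with Ccl25 at 1.41 and 1.74 are those with intestinal marker means of 2.20 and 2.53.

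Genes around the chemokine system were read from lists drawn up by role. Of 15 tested upstream cytokines and regulators of NF-kB, 4 rose in each genotype and none fell, where 5.63% of all genes rose in wild type and 4.78% in transgenic mice. These were Rela, the p65 subunit of NF-kB (1.93 ± 0.26 in wild type, adjusted p = 0.000207 by limma), the receptor Tnfrsf1a (0.80 ± 0.25), and the RNA-destabilising proteins Zc3h12a (2.60 ± 0.37) and Zfp36 (3.06 ± 0.48), which limit cytokine transcripts. Tnf itself gave 1.51 ± 0.50 in wild type (adjusted p = 0.0572). Of 8 tested genes for the processing and presentation of chemokines, 2 rose in each genotype, beside the same shares of all genes: Adam10, the protease that sheds Cxcl16 and Cx3cl1 from the membrane (1.33 ± 0.28 in wild type and 1.43 ± 0.31 in transgenic mice), and Sdc4, a heparan sulphate carrier that binds chemokines (1.48 ± 0.23 and 1.60 ± 0.24).

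Of 15 tested genes that signal below chemokine receptors, 2 were called in each genotype, where 14% of all genes were in wild type and 8.2% in transgenic mice, so the count is near the background. Rgs2, which shortens G protein signals, rose in both (1.88 ± 0.38 and 1.54 ± 0.41). In wild type Arrb1, which turns receptors off, fell by 0.72 ± 0.22 (adjusted p = 0.0426 by limma), and in transgenic mice Gnai3, an inhibitory G protein subunit, rose by 1.17 ± 0.32 (adjusted p = 0.0333). None of 11 tested atypical receptors and chemokine-like ligands, such as Ackr1, Ackr3, Pf4 and Cd74, was called in either genotype. Over the 4 lists, the median difference in wild type was 0.32, 0.22, -0.12 and 0.12 in the order described here, against -0.06 over all genes.

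When the cerulein difference was averaged over both genotypes, a reading also chosen after the values had been seen, 11 members rose (10.1% of all genes did) and 3 fell (17%), while 27.1% of all genes were called in one direction or the other. Beside the 9 ligands these were Ccl4 (0.84 ± 0.28, adjusted p = 0.0355 by limma) and Cxcl5 (1.47 ± 0.51, adjusted p = 0.0436), both of which turned with normexp (to -0.15 and -0.12), and those that fell were Ccl27a (-1.10 ± 0.26, adjusted p = 0.00687), Cxcl12 (-0.83 ± 0.24, adjusted p = 0.0195) and Cxcl9 (-0.76 ± 0.27, adjusted p = 0.0457). Without slide 2, none of these 5 additional calls was left, and with slide as a block only that of Ccl27a was (-0.62, adjusted p = 0.0185). The averaged size of Cxcl5 rests largely on saline arrays not well above background, since 0 wild type and 1 transgenic saline arrays were.

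The 10 members below the filter were well above background on fewer than 3 arrays. Ccl20, Ccl22, Ccl26, Cxcl15 and Ccr1 were so on no array. Cxcl2, a neutrophil attractant like Cxcl1, was well above background on 2 wild type cerulein arrays, at -3.84 and -4.43, and ranged from -6.37 to -5.58 in wild type saline mice. Ccl28, a mucosal ligand, was well above background on transgenic cerulein replicate 13 (-4.01). It ranged from -4.53 to -3.79 on the transgenic saline arrays, none of them well above background. Cxcl3 stood at -0.14 on wild type cerulein replicate 11, against -7.10 to -5.50 on the other arrays with a value. Xcl1 was well above background on wild type saline replicate 8 (-3.73) and its receptor Xcr1 on wild type saline replicate 5 (-2.03). The RefSeq table lists 6 further genes that match the rule, Ccl21a, Ccl21b, Ccl21c, Ccl21d, Ccl27b and Cxcl11, for which no probe was named here.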

How the data were processed

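Per the labels' protocols, total RNA from whole pancreas was Cy3-labelled and hybridised to 1-colour Agilent arrays; per the submitters' processing notes, scans were read with Agilent Feature Extraction 10.7.3.1. The deposited scanner files hold each spot's processed signal intensity, and the authors' series table holds log2 values of unstated normalization, used as an alternative (median per array 6.56 to 6.94). Spots flagged as outliers were left out, spots of a probe averaged, and log2 intensity taken relative to the array's 75th percentile. Probes well above background on at least 3 of 15 arrays were kept, and each gene was read from its brightest probe; symbols came from RefSeq accessions (27235 of 28685 matched). limma 3.58.1 (R 4.3.3) fitted 4 group means (11 residual degrees of freedom), with Benjamini-Hochberg adjustment over 17338 genes. The fit was tested on simulated data. The number of arrays limits precision. The labels number mice separately. The members, gene lists and marker lists were chosen with earlier results of these data known. Values on every array are given for members called in a comparison, for members whose treatment groups did not overlap at a difference of 2-fold or more, and for one well-measured member of each role. Alternatives were normexp (offset 50, on median signals because mean signals were not in the columns used here), quantile and median scaling, other filters and probe rules, array weights, slide as a block, the series table, and leaving out each array, slide 2 or the 2 arrays high in intestinal markers (the last 2 chosen after seeing the data). The values of 1 tested receptor are not reported here; it is kept in the counts.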

Additional observations from a re-analysis of the deposited data

Results flagged for a closer look

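Of 126 groups of 4 arrays (42 members in 3 groups), 8 held an array far from the other 3, and chance alone flags about 5% of groups, or 6.3 here. Lower than the rest of their group were Ccl4 on wild type saline replicate 7 (-5.45 against -3.61 to -3.46), Ccl7 on wild type cerulein replicate 11 (-1.06 against -0.04 to 0.12), Ccr9 on wild type cerulein replicate 10 (-1.62 against 0.21 to 0.43), Cx3cr1 on the same array (-1.07 against -0.28 to -0.25) and Cxcl9 on transgenic cerulein replicate 14 (-3.60 against -2.67 to -2.51). Higher were Ccl1 on transgenic cerulein replicate 16 (-4.60 against -6.69 to -6.54), Ccl25 on wild type cerulein replicate 9 (-0.46 against -0.86 to -0.79) and Ccr7 on the same array (1.98 against -0.56 to -0.16). Replicate 16 is the one transgenic array on slide 2.

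Among members too dim to be tested, 3 were well above background after cerulein and on no saline array: Cxcl2 on 2 wild type cerulein arrays, Cxcl3 on 1 wild type cerulein array and Ccl28 on 1 transgenic cerulein array. For Ccl28 the level on that array (-4.01) lay within the range of the transgenic saline arrays, -4.53 to -3.79.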

How the results depend on the processing

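The count of members called was 10 in wild type and 9 in transgenic mice for cerulein against saline, and 0 for each genotype comparison and for the difference of responses. Kept to probes well above background on all arrays, with fewer genes tested, the counts were 6 and 5. With array weights they were 17 and 23, and 5 members each differed between genotypes after saline and after cerulein. That setting called many more of all 17338 genes too. Between genotypes it called 486 higher and 216 lower in transgenic mice after saline, and 777 and 900 after cerulein. Its cerulein counts over all genes are given below. With slide as a block, 1 member (Cxcl14) differed after cerulein. Without the 2 arrays high in intestinal markers the transgenic count was 4. Leaving out 1 array gave 9 to 12 calls in wild type and 5 to 9 in transgenic mice, the lowest without transgenic saline replicate 4 or transgenic cerulein replicate 14. With normexp background correction, which moved the median wild type difference of all genes from -0.06 to -0.23, the averaged cerulein differences of Ccl4 and Cxcl5 reversed, to -0.15 and -0.12. The cause of these changes was not tested. Over all genes, slide as a block gave 2387 genes higher and 1351 lower in wild type in place of 976 and 1448, and 2635 and 1447 in transgenic mice in place of 829 and 593. Array weights gave 3387 and 5794 in wild type and 4146 and 5624 in transgenic mice, normexp 922 and 2236 in wild type and 954 and 947 in transgenic mice, leaving out slide 2 1107 and 448 in wild type, and leaving out the 2 arrays high in intestinal markers 352 and 201 in transgenic mice. Of 934 values of single members under other settings, 820 kept their direction and their side of the threshold, 105 kept only the direction, 7 within-slide values moved by more than the spread and 2 turned. No paired analysis was possible because the groups share no replicate number. Members not well above background give only bounds, and 3 or 4 arrays a group limit what can be called.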
